A study of Homo sapiens with 28 samples.

Results

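DEAD box (DDX) and DEAH box (DHX) genes encode RNA helicases, and their transcripts were examined for N6-methyladenosine (m6A) on chromatin-associated RNA (caRNA). Members were chosen by name, as protein-coding genes of GENCODE on hg38 whose symbol is DDX or DHX followed by digits. This gave 54 genes, 38 DDX and 16 DHX, of 20033 protein-coding genes. A peak was given to a member when its summit lay on the strand of the gene, between 1000 bases upstream of the gene start and the gene end, and 1513 of 496678 listed peaks met this rule.

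The series used methylated RNA immunoprecipitation sequencing (MeRIP-seq), in which rRNA-depleted RNA from the chromatin fraction is captured with an antibody against m6A and regions rich in captured reads are called as peaks. It held 28 libraries, and peak lists of the 14 immunoprecipitated (IP) libraries were used, while the 14 input libraries were not analysed here. The IP libraries formed 6 groups. HepG2 WT (n = 2) and K562 WT (n = 2) were unmodified hepatoma and myelogenous leukaemia lines. K562 Control and K562 RBFOX2 KD had 2 libraries each and came from K562 cells. NB4 Control and NB4 RBFOX2 KD had 3 each and came from NB4, an acute promyelocytic leukaemia line. In the KD groups a stably expressed short hairpin RNA was directed against RBFOX2, an RNA-binding protein whose part in placing m6A on caRNA was the question of the study. Control groups carried a control hairpin, per the study's methods, and there was no WT group of NB4 and no KD of HepG2. The labels do not say which RBFOX2 hairpin a library carried.

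DEAD and DEAH box proteins share a core that binds RNA and ATP and remodels RNA duplexes or RNA-protein complexes. Different members drive successive steps of the spliceosome, the processing of pre-ribosomal RNA, the export and translation of mRNA, RNA decay and the sensing of foreign RNA. The m6A methyltransferase acts on nascent RNA, mostly at the sequence GGAC, and in mRNA the mark is known to gather near stop codons and in long internal exons. The peaks described here lie on the RNAs that encode these helicases and do not concern RNA bound by the proteins.

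Each peak was scored by the percentile of its -log10 q-value within its own list, from 0 for the weakest to 100 for the strongest peak, and a gene was scored by its strongest peak, with 0 where no peak was listed. A percentile ranks peaks and is no methylation level. Without the input libraries, more m6A per transcript and more transcript on chromatin cannot be told apart. The lists held 22700 to 44088 peaks, and the depth recovered from them ranged from 10.8 to 32.6 M reads. The HepG2 WT libraries and NB4 Control 3 stood apart, because the read pileup at a summit came out whole at 18.9% to 19.96% of summits there and at 100% in the other 11 libraries. The HepG2 WT lists were also the shortest, at 22700 and 27438 peaks. Erythroid marker genes had peaks in every K562 library for 6 of 6 genes, and in every NB4 Control library for 1 and every NB4 RBFOX2 KD library for 2. Promyelocytic marker genes had peaks in every NB4 Control library for 5 of 6. Of these 6, 2 had peaks in both K562 WT libraries, and 1 in both libraries of K562 Control and of K562 RBFOX2 KD. Hepatocyte marker genes had peaks in both HepG2 libraries for only 3 of 8, and ALB and AFP had none in any library. The study's methods speak of biological replicates, but no label ties a library to a separate culture, so that a p-value here measures the spread between these libraries.

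Helicase genes were often listed. In each library 33 to 45 of the 54 members had a peak, 61.1% to 83.3%, against 37.1% to 48.9% of all protein-coding genes. A peak in all 14 libraries was found for 31 members (57.4%), against 25.4% of protein-coding genes, and in the 12 libraries other than HepG2 for 36 members, against 29.8% of protein-coding genes. No peak was listed for 4 members (7.41%), against 37% of protein-coding genes, and these were DDX60, DDX4, DDX43 and DDX25. DDX4, DDX25 and DDX43 are known for expression in the germ line, and DDX60 is an interferon-induced gene. Among all peaks of a library, 2.52 to 3.64 per 1000 lay in a helicase gene. Median percentiles of helicase peaks were 53.8 to 67.6, and those of all peaks in protein-coding genes 51.5 to 54.0. The share of members with a peak was lowest in HepG2 WT 1 and 2, at 61.1% and 70.4%, and the other 12 libraries lay between 75.9% and 83.3%.

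**Figure D1:**
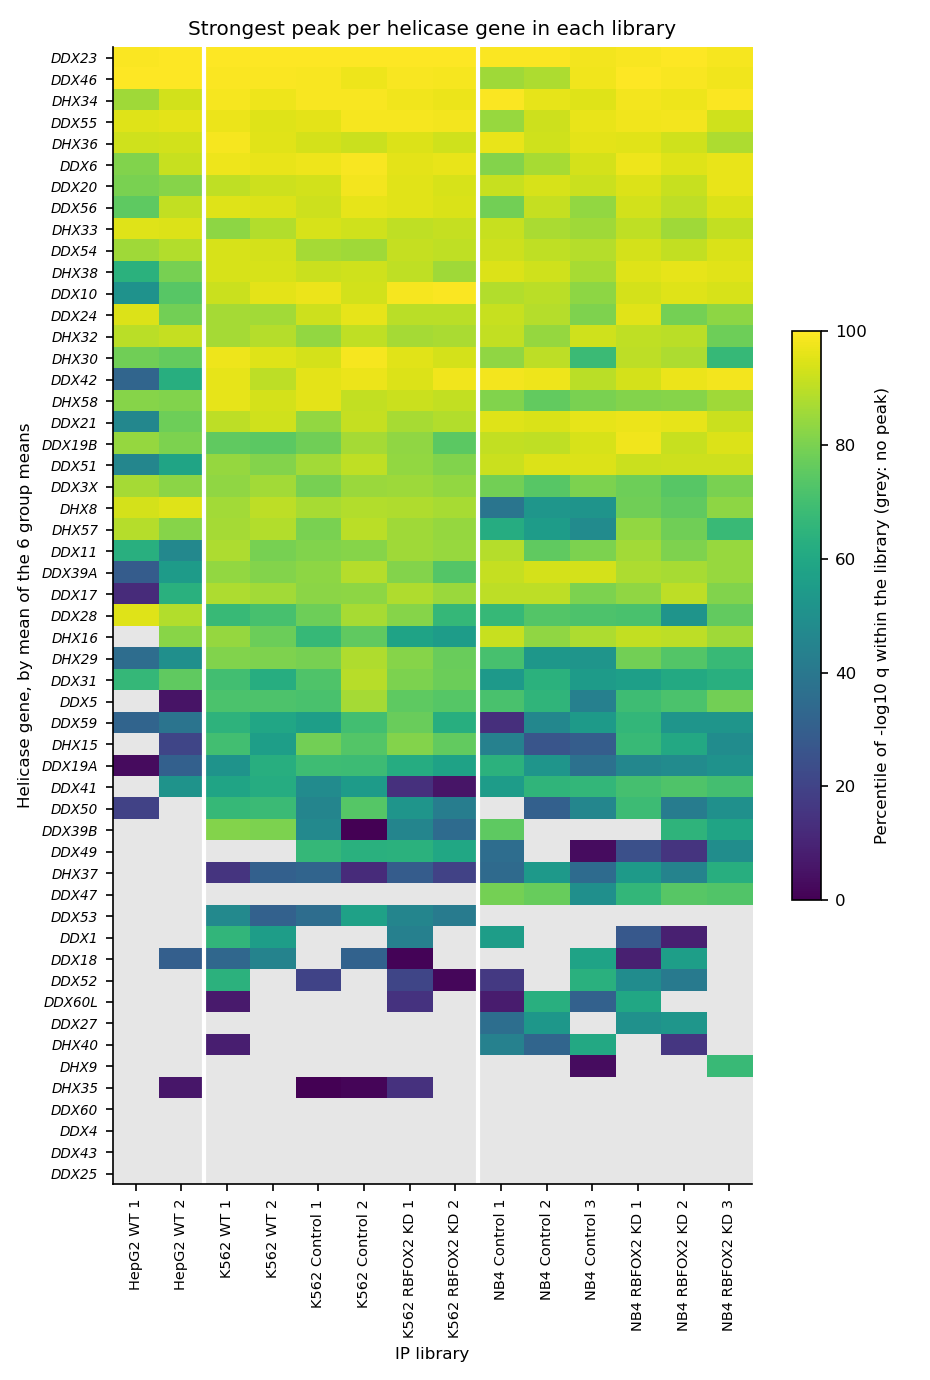
Percentile of the strongest peak for 53 helicase genes (rows) in the 14 IP libraries (columns), with the colour scale from 0 to 100 and grey where no peak was listed; a Y-linked member is left out. DDX23 is at 98.4 or above in every library, DDX47 is coloured in NB4 only, DDX53 in K562 only, and the bottom 4 rows are grey throughout.

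DDX23, a helicase of the U5 snRNP that acts when the spliceosome is activated, had the highest mean percentile over the 6 groups. DDX46 was above it in HepG2 WT 1 and 2 and NB4 RBFOX2 KD 1, and DHX34 in NB4 Control 1 and NB4 RBFOX2 KD 3. The DDX23 percentile was lowest in NB4 Control 3, at 98.4, had a median of 99.7 and reached 99.95 in K562 RBFOX2 KD 1. The region spanned chr12:48829499-48830803 on the minus strand (hg38), in the last exon, with its summit in the 3′ UTR 390 bases past the stop codon. DDX55, which takes part in assembly of the large ribosomal subunit, had percentiles of 84.6 to 98.7 at one region of coding exon 14 (chr12:123619391-123620541). DHX36, which unwinds G-quadruplexes, had percentiles of 87.9 to 98.6 at coding exon 1 (chr3:154324185-154324483). DDX20, a subunit of the SMN complex also known as Gemin3, had exactly 1 peak in every library, at coding exon 11, with percentiles of 80.0 and 81.9 in HepG2 and 90.2 to 98.4 in the others. DDX56, a nucleolar helicase, had percentiles of 75.4 to 96.4 in its 3′ UTR (chr7:44565535-44566159).

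DDX6 and DHX34 had more than 1 region listed in every library, as did DHX36, whose coding exon 25 (chr3:154276018-154276414) was also listed in all 14. DDX6, a translational repressor of P-bodies, had percentiles of 81.0 to 99.0 and was listed in every library both in the 3′ UTR of exon 14 and in the 5′ UTR of exon 2, with mean percentiles of 90.9 and 90.7. DHX34, a factor of nonsense-mediated decay, had percentiles of 85.9 to 99.4 and 3 regions listed in every library. These lay at 2 places of intron 1, with mean percentiles of 96.5 and 57.6, and in the 5′ UTR of exon 2, with 93.0. The summit of the first lay also in an unnamed gene of the same strand, ENSG00000288827. DDX46, a helicase that acts on the U2 snRNP, ranked high at a shared region. Its percentiles of 85.6 to 99.9 came from chr5:134854819-134855494, at the far end of the gene outside the canonical transcript, and that region also lies in C5orf24. When summits shared with another protein-coding gene were left out, DDX46 stood 29th of the 54 members instead of the second.

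Stretches around the summits of regions found in all 14 libraries are given here, because they are the sites at which helicase transcripts were most regularly called. They were read from hg38 on the gene strand, and capitals mark GGAC, the core of the usual m6A context. DHX38 and DHX33 are shown as members whose summit window held the full GGACT.
DDX23 3′ UTR, exon 17, chr12:48830065-48830093, minus: aactgcataaactgcagtagcatcattgc
DDX55 coding exon 14, chr12:123619975-123620075, plus: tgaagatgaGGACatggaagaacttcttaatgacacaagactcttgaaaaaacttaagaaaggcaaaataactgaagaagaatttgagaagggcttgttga
DHX36 coding exon 1, chr3:154324273-154324373, minus: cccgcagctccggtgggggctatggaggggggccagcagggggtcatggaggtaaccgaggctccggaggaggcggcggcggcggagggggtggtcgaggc
DDX20 coding exon 11, chr1:111766435-111766535, plus: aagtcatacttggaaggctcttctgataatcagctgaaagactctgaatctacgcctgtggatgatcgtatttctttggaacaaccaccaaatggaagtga
DHX38 coding exon 2, chr16:72096275-72096375, plus: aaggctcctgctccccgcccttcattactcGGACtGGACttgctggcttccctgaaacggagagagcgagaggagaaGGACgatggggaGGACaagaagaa
DHX33 coding exon 3, chr17:5462350-5462450, minus: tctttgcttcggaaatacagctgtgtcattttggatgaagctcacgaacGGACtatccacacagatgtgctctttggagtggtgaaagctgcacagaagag

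The letters GGAC occurred 4 times in the DHX38 window and once each in those of DDX55 and DHX33, and not in the windows of DHX36 and DDX20 or in the shorter stretch of DDX23. Over the 45 helicase regions found in every library, the 101 bases centred on the summit held GGAC on the gene strand in 21 (46.7%) and GGACT in 5 (11.1%). Windows of the same length 300 bases to either side held them in 20% and 5.56%. Among the 7238 regions found in every library in other protein-coding genes, summit windows held GGAC in 55.9% and GGACT in 22.3%, and flanking windows in 28.5% and 8.55%. A window without these letters shows only that they are not in that stretch.

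The helicase peaks merged into 211 regions. Of these, 45 (21.3%) in 31 genes were found in all 14 libraries, against 11.9% of 61085 regions of protein-coding genes, and 43 (20.4%) were found in 1 library, against 21.7%. The constant regions were mostly exonic, with 25 of 45 in coding sequence, 13 in the 3′ UTR and 3 in the 5′ UTR, while 2 were intronic, both of DHX34. Internal exons held 18 of them, and the median length of these exons was 466.5 bases, against 128 for the 836 internal exons of the canonical helicase transcripts. DHX30 exon 11 (837 bases), DHX57 exon 5 (839 bases) and DDX59 exon 2 (815 bases) were among the longest. The last exon held 21, and 14 (31.1%) had their summit within 200 bases of the stop codon, against 19.8% of such regions in other protein-coding genes. Counting every exon that held a constant summit, the median length was 837 bases, against 1411 for the constant regions of other protein-coding genes. Gene parts and internal exons were not counted for those other regions. Longer exons offer more room for a summit, and the part of length in these shares was not tested. DDX24, a ribosome biogenesis helicase, had constant regions in 3 coding exons, numbers 2, 3 and 5.

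A summit in more than 1 protein-coding gene of the strand was found for 20 of the 211 regions, 6 of which were in all libraries. The neighbouring genes were a readthrough gene across DDX19B and DDX19A, one across ATP6V1G2 and DDX39B, C5orf24 at DDX46, APOLD1 at DDX47, C1QBP at DHX33 and KAT2A at DHX58. The only region of DHX58, which encodes the RIG-I-like receptor LGP2, lay upstream of the gene inside KAT2A (chr17:42113153-42113941) and was listed in every library. Its values below can therefore not be told apart from those of KAT2A.

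By gene part, peak by peak, helicase summits lay in coding sequence in 47.0% ± 3.69 of cases (SD, n = 14 libraries), between 40.2% and 54%. Summits in other protein-coding genes did so in 29% ± 3.10, at most 35.3%, so that the ranges did not overlap. Largely the same genes are counted again in each library. The SD and the ranges therefore show the spread between libraries and not that between sets of genes. Introns held 26.9% ± 3.21 of helicase summits and 43.1% ± 4.0 of the others, also without overlap (20% to 31.1% and 35.2% to 49.6%). The 3′ UTR held 18.3% ± 2.54 against 14.4% ± 1.58, and the 5′ UTR 4.96% ± 1.84 against 4.31% ± 0.765, with overlapping ranges. Within 200 bases of the stop codon were 17.3% ± 2.28 of helicase summits and 11.2% ± 1.19 of the others. Counted by region, coding sequence held 39.8% and introns 41.2% of the 211 regions, and introns held 2 of the 45 found in every library. The matching shares for regions of other genes were not counted. Without the HepG2 WT libraries the coding share by peak was 46.1%.

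**Figure D2:**
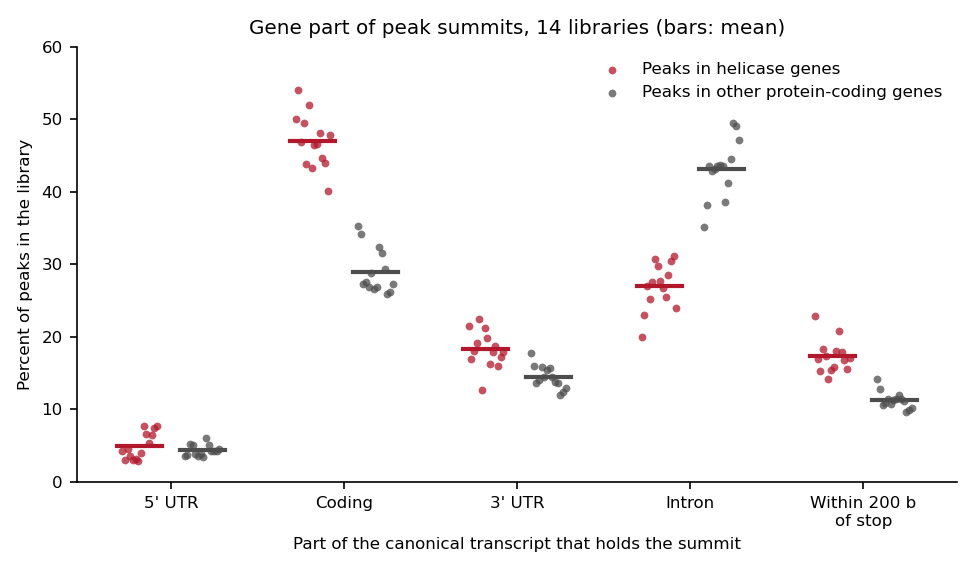
Percent of peak summits by part of the canonical transcript, for peaks in helicase genes (red) and in other protein-coding genes (grey), with 1 point per IP library and bars at the mean of 14. Coding sequence holds 40.2% to 54% of helicase summits and at most 35.3% of the others, and introns the reverse order.

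The roles of the members were then compared. Of 12 spliceosomal helicases, every one had a peak somewhere, 6 had one in all 14 libraries, and the median over genes of the mean percentile was 75.9. Of 16 ribosome biogenesis helicases, 9 had a peak in all libraries, and the median was 75.6. Among 10 genes of export and translation, 8 had a peak in all libraries, with a median of 80.4. Both mitochondrial members, DDX28 and DHX30, had one in all libraries. The 4 members tied to innate RNA sensing had a median of 9.09, and apart from DHX58 with its shared region none was listed in every library. DHX9, an abundant nuclear helicase, had a peak only in NB4 Control 3 and NB4 RBFOX2 KD 3, at percentiles of 3.16 and 67.9. The 4 germ line genes had a median of 0. Helicases outside the naming rule were also examined. Of 9 other RNA helicases 6 had a peak in all libraries, with a median of 77.1, and UPF1, the helicase of nonsense-mediated decay, had group means of 95.8 to 98.5. Of 7 DEAD or DEAH genes under other names only YTHDC2, itself an m6A reader, had a peak in all libraries, and the median was 14.3.

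Members listed in some libraries and not in others completed the family. DDX49, which takes part in ribosome biogenesis, had no peak in HepG2 WT or K562 WT and percentiles of 66.4, 63.6, 63.8 and 59.4 in the 4 K562 Control and KD libraries, while 5 of the 6 NB4 libraries had 3.34 to 49.1. DDX27, a helicase of large subunit assembly, was listed only in NB4, in Control 1 and 2 at 36.1 and 53.1 and in KD 1 and 2 at 50.4 and 52.5. Neither gene had a peak in HepG2 or in K562 WT. DDX39B, the export and splicing factor UAP56, was at 81.3 and 80.1 in K562 WT and no higher than 47.2 in the other K562 libraries, with no peak in HepG2 and 3 of 6 NB4 libraries listed. DDX50, a nucleolar paralog of DDX21, was at 42.3 to 73.6 in K562 and lacked a peak in HepG2 WT 2 and NB4 Control 1. DDX18, DDX52, DDX1, DDX60L and DHX35 were listed in 8, 8, 6, 6 and 4 libraries, at percentiles of at most 65.97, the highest being that of DDX1 in K562 WT 1. DHX32 was listed in every library, at 78.1 to 92.6.

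Percentiles of the strongest peak were compared between the 6 K562 and the 6 NB4 libraries over 10931 protein-coding genes (exact permutation test, two-sided, 924 arrangements, Benjamini-Hochberg adjusted). Of 48 members tested, 12 (25%) were higher in K562, against 32.3% of all genes tested, and 8 (16.7%) were higher in NB4, against 20.2%. Both shares of the members were below those of all genes, and that gap was not tested. The median difference was 2.02 points over the members and 2.63 over all genes tested. By role, 3 of 12 spliceosomal members were higher in K562 and 2 in NB4, and of 16 ribosome biogenesis members 2 were higher in K562 and 4 in NB4. Of the 9 export and translation members tested, 2 were higher in each line.

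The 5 largest differences towards K562 were those of DDX53, DHX15, DHX8, DHX57 and DDX59. DDX53, a single-exon gene of the X chromosome known as a cancer-testis antigen, had percentiles of 31.0 (lowest), 43.5 (median) and 57.1 (highest) in K562 and no peak in NB4 or HepG2. The difference was 43.0 (adjusted p = 0.00633 by the exact permutation test, the smallest reached), with 2 coding regions listed in each K562 library. DHX15, which disassembles the spliceosome after splicing, ranged from 56.1 over 74.7 to 81.6 in K562 and from 26.3 over 46.3 to 67.4 in NB4. The difference of 26.6 passed the test (exact permutation, adjusted p = 0.0205), although the ranges overlapped. DHX8, which releases the spliced mRNA, ranged from 86.2 over 87.6 to 90.04 in K562 and from 38.9 over 64.2 to 83.1 in NB4, a difference of 24.4 without overlap (exact permutation, adjusted p = 0.00633). DHX57 was at 80.0, 86.2 and 89.8 in K562 and 48.3, 64.8 and 83.9 in NB4 (lowest, median and highest), a difference of 19.9 (exact permutation, adjusted p = 0.0114). DDX59 differed by 17.5 (exact permutation, adjusted p = 0.0386) and lost the call in 11 of 20 alternative settings that scored percentiles. The other 7 members higher in K562 were DDX31, DHX29, DHX30, DHX58, DDX3X, DDX56 and DDX23, by 16.4 down to 0.764 points.

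Towards NB4 the largest differences were those of DDX47, DDX41, DHX37, DHX16 and DDX19B. DDX47, which processes pre-ribosomal RNA, had no peak in K562 or HepG2 and ranged from 49.7 over 73.5 to 79.0 in NB4, a difference of -69.8 (K562 minus NB4, exact permutation, adjusted p = 0.00633). Its region in intron 1 (chr12:12814009-12814187) also lies in APOLD1. DDX41, a spliceosome component mutated in some myeloid neoplasms, ranged from 5.64 over 51.6 to 62.0 in K562 and from 55.4 over 68.3 to 72.4 in NB4, a difference of -26.2 (exact permutation, adjusted p = 0.0160). The low K562 values were those of the KD libraries described below. DHX37, a helicase of the small subunit processome, ranged from 12.1 to 32.2 in K562 and from 34.7 to 62.8 in NB4, a difference of -24.4 (exact permutation, adjusted p = 0.00633). DHX16, which starts the first step of splicing and lies in the MHC region, ranged from 55.2 to 84.1 in K562 and from 83.5 to 91.7 in NB4, a difference of -18.7 (exact permutation, adjusted p = 0.0114). DDX19B, an mRNA export factor with a close paralog in DDX19A, ranged from 74.8 to 86.6 in K562 and from 90.3 to 98.0 in NB4, a difference of -14.2 (exact permutation, adjusted p = 0.00633). DDX51, DDX39A and DDX21 were also higher in NB4, with differences of -8.58, -7.69 and -6.39 points, and DDX39A has a near copy in DDX39B, so that reads may be split between them.

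**Figure D3:**
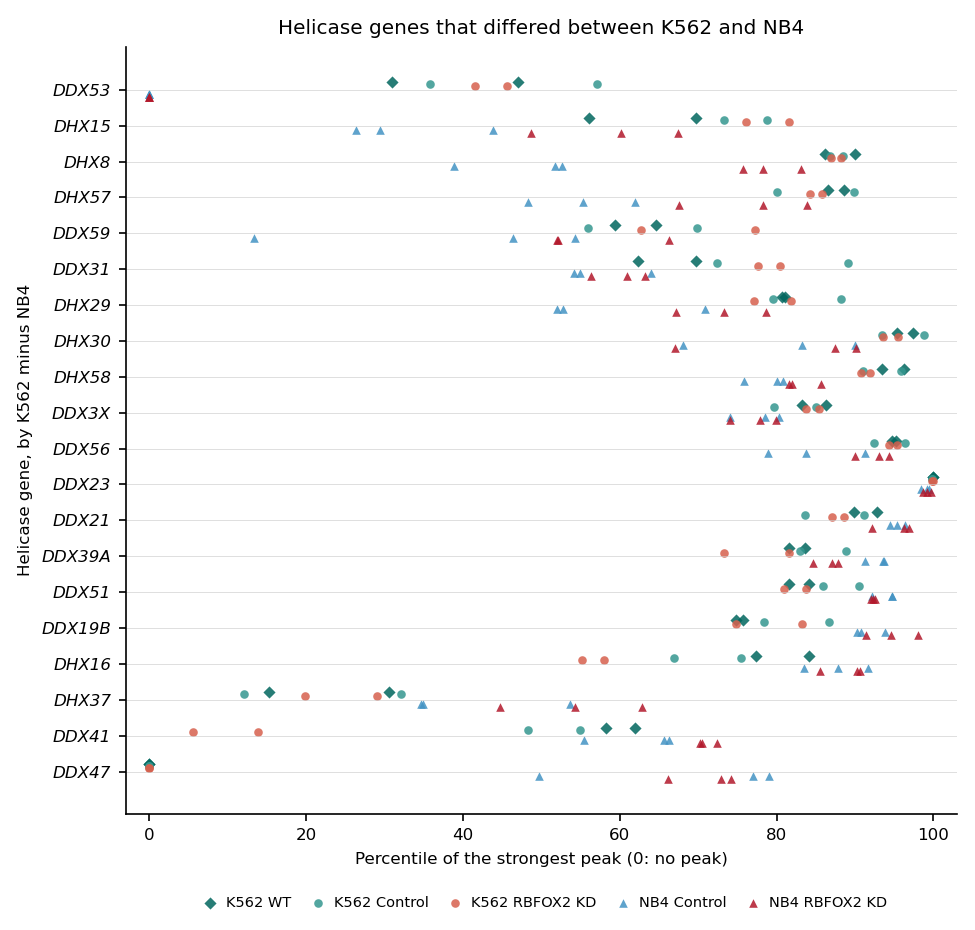
Percentile of the strongest peak in each K562 and NB4 library for the 20 helicase genes that passed the test between the lines, ordered by the difference, with symbols by group and 0 meaning no peak. DDX53 lies at 0 in NB4 and DDX47 at 0 in K562, while DDX23 is above 98 in both lines.

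Without the K562 WT libraries, 6 of these 20 calls no longer passed, those of DDX59, DHX30, DHX29, DDX56, DHX8 and DDX39A, with differences within 2 points of those above. When every list was shortened to the number of peaks of the shortest, the DDX53 difference was 7.13 (exact permutation, adjusted p = 0.244), and DDX59, DDX31 and DDX3X also lost the call. With any single library left out, 16 of the 20 calls held. DDX59 lost its call without 9 of the 12 libraries taken singly, DDX56 without any of 5 K562 libraries (all but K562 Control 1), DDX41 without any of 5 NB4 libraries (all but NB4 Control 1) and DDX39A without any NB4 Control library.

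Some of these differences went with another region of the same gene. In DHX15, the 6 K562 libraries used coding exon 2, at percentiles of 56.1 to 81.6, and no NB4 or HepG2 library had a peak there. The 6 NB4 libraries used intron 1 (chr4:24583642-24583931), at 26.3 to 67.4, and there K562 WT 1 and 2 had 11 and 1.92 and the 4 other K562 libraries no peak. Regions in all 6 K562 libraries and no other numbered 5 of 211, against 3.85% of all regions, and lay in DDX17 exon 1, DDX50 intron 1, DHX15 exon 2 and at 2 places of DDX53. In DDX17, a coactivator and splicing helicase also called p72, the exon 1 region (chr22:38505456-38506320) was at 59.7 to 82.6 in K562, while the strongest peak of the gene had medians of 85.6 in K562 and 86.7 in NB4. One region, DDX47 intron 1, was in all 6 NB4 libraries and no other, against 3.03% of all regions.
Summit windows of 4 regions are printed because they hold the peaks of DDX53 in K562 and the strongest NB4 peaks of DHX15 and DDX47. Capitals again mark GGAC, which both DDX53 windows held and the other two did not.
DDX53 coding exon 1, chrX:23001711-23001811, plus: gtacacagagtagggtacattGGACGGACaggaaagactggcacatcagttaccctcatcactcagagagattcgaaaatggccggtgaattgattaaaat
DDX53 coding exon 1, chrX:23000122-23000222, plus: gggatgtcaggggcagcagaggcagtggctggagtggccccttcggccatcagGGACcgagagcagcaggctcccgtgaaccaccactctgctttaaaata
DHX15 intron 1, chr4:24583735-24583835, minus: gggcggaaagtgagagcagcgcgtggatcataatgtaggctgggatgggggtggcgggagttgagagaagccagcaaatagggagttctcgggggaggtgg
DDX47 intron 1, chr12:12814063-12814163, plus: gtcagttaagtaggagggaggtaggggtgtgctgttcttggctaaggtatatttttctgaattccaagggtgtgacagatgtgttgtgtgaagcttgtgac

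Helicases outside the naming rule were compared in the same way. Of 7 DEAD or DEAH genes under other names 4 were tested, and 2 were higher in K562 and 1 in NB4. All 9 other RNA helicases were tested, and 5 were higher in K562 and 1 in NB4. Of all genes tested, 32.3% were higher in K562 and 20.2% in NB4. RIGI and IFIH1, which sense viral RNA, were higher in NB4, with differences of -67.9 and -61.9 points (K562 minus NB4), and SKIC2, SNRNP200 and MOV10 were higher in K562 by 76.1, 43.2 and 40.1 points. UPF1, DICER1, EIF4A3 and MTREX did not pass, with differences of 0.604, -1.48, -1.32 and -5.11 points. Adjusted p-values of RIGI, IFIH1, SKIC2 and MOV10 by the exact permutation test were 0.00633, and that of SNRNP200 was 0.0114.

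In unmodified cells, a peak in both K562 WT libraries and in neither HepG2 WT library was found for 4 of 46 members (8.70%), against 22.2% of genes with a peak in these libraries. These were DDX1, DDX39B, DHX37 and DDX53. The reverse was found for 1 member (2.17%), against 8.11%. No test of these counts was made. Without HepG2 WT 2 the first count was 9 of 45 (20%, against 28% of genes), and without K562 WT 2 it was 7 of 46 (15.2%, against 25%).

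Both HepG2 WT libraries lay above all 12 K562 and NB4 libraries for 4 of 41 members (9.76%), against 6.22% of genes, and below all of them for 15 (36.6%), against 21.8%. DDX28, a helicase of mitochondrial ribosome assembly, was at 95.1 and 88.6 in HepG2 and at 51.8 to 87.1 elsewhere. DHX8 was at 93.6 and 95.0 in HepG2, and DHX33 at 95.1 and 94.9, each above its highest value in K562 and NB4, 90.04 and 93.8. The DHX33 values came from its 3′ UTR region, whose summit also lies in C1QBP, and at the unshared coding exon 3 HepG2 was at 50.5 and 80.4, below the 82.9 to 93.8 of the other libraries. DDX46 was the remaining one, at its region shared with C5orf24. Of those below, DDX5, the splicing helicase p68, had no peak in HepG2 WT 1 and a percentile of 5.20 in HepG2 WT 2, against 43.4 to 86.4 elsewhere. DHX15 had no peak in HepG2 WT 1 and 21.0 in HepG2 WT 2. DDX42, a helicase bound to SF3b, was at 32.8 and 62.6 in HepG2 and at 89.8 to 98.4 in the other 12 libraries, at the same region of its last coding exon. The other 12 below were DDX20, DHX29, DDX21, DDX10, DDX11, DHX37, DDX51, DDX19A, DHX38, DDX39A, DHX34 and DDX17. The HepG2 lists are also the shortest and the ones with unwhole pileups, and the part of this in the HepG2 values was not tested. Regions in both HepG2 libraries and no other numbered 4 of 211, against 3.96%, among them DDX24 intron 6 and a region of DHX8 past its canonical transcript. Regions in all 12 K562 and NB4 libraries and in no HepG2 library numbered 3, against 2.34%, in DDX10 intron 13, DDX21 exon 1 and DDX39A exon 1.

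RBFOX2 KD was the comparison that the study was designed for. No helicase gene gained a first peak or lost its last one in every library of a line. In K562 the counts were 0 gained and 0 lost of 45 members, against 0.675% and 0.931% of genes. In NB4 they were 0 and 0 of 47 members, against 0.844% and 0.563%. Within a line an exact permutation test cannot pass 0.05, since its smallest p is 0.333 with 2 against 2 libraries and 0.1 with 3 against 3. Over both lines, with labels permuted within a line (exact permutation test, two-sided, 120 arrangements), none of 10608 genes passed the adjustment. The smallest adjusted p was 0.621, and 3537 genes at the smallest possible p of 0.0167 would have been needed to pass. At unadjusted p under 0.05 there were 491 genes (4.63%) and 4 of 48 members (8.33%), namely DDX10, DDX39A, DDX54 and DHX15.

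Some members did not overlap between Control and KD within a line. In K562, KD was higher for 4 of 43 members (9.30%, against 11.7% of genes) and lower for 10 (23.3%, against 17.4%). DDX54, a nucleolar helicase, was at 86.5 and 85.8 in Control and 91.2 and 90.3 in KD. DDX10, a helicase of small subunit assembly, was at 97.1 and 93.1 in Control and 98.7 and 99.3 in KD, and DDX11, a DNA helicase of sister chromatid cohesion, at 81.0 and 81.9 in Control and 85.8 and 84.8 in KD. DDX17 was the fourth. These shifts were 3.64 to 4.55 points. On the lower side, DHX16 was at 67.0 and 75.5 in K562 Control and 58.0 and 55.2 in KD, and DDX19A at 68.9 and 68.4 in Control and 62.1 and 57.4 in KD.

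DDX41 had the widest gap in K562, with percentiles of 48.3 and 54.9 in Control and 13.8 and 5.64 in KD. The strongest peak was not at the same place in these libraries. In the coding exon 3 region (chr5:177516157-177516939) the percentiles were 0.0800 and 54.9 in Control and 13.8 and 3.8 in KD, and these overlapped. In the 3′ UTR region (chr5:177511590-177511957), K562 Control 1 and KD 2 had 48.3 and 5.64, and the other 2 libraries had no peak. In those 2 libraries, K562 Control 2 and KD 1, a wide peak with its summit past the end of the gene reached 693 and 382 bases into DDX41, over the place of that region. Other members lower in K562 KD without overlap were DDX6, DDX51, DDX24, DHX38, DHX33, DDX39A and DHX34, with KD minus Control between -8.47 and -1.53 points.

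In NB4, KD was higher for 8 of 46 members (17.4%, against 17.1% of genes) and lower for 2 (4.35%, against 7.35%). DHX8 was at 38.9, 52.6 and 51.8 in Control and 78.2, 75.8 and 83.1 in KD. DHX15 was at 43.8, 26.3 and 29.5 in Control and 67.4, 60.2 and 48.7 in KD. DHX57 was at 61.9, 55.4 and 48.3 in Control and 83.9, 78.3 and 67.6 in KD. In each of the 3 genes every NB4 KD library lay above every Control library. In the other direction DHX40 was at 43.98, 32.7 and 60.5 in Control, and in KD had 15.8 in replicate 2 and no peak in replicates 1 and 3. DDX39A was at 91.3, 93.6 and 93.6 in Control and 87.8, 87.1 and 84.6 in KD. NB4 KD libraries were deeper than NB4 Control libraries, at 16.8 to 21.9 against 10.8 to 17.1 M recovered reads. With pileups scaled to the lowest depth, KD was higher without overlap for 8 of 46 members (17.4%, against 16.9% of genes). That scaling kept at least 98.8% of the peaks of each NB4 list, and scores are ranks within a list. This setting can therefore say little about depth. With every list shortened to the number of peaks of the shortest, KD was higher for 3 of 42 members (7.14%, against 10.2% of genes) and lower for 3 (7.14%, against 13.8%), so that among all genes the larger share was then the lower one.

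These counts moved when 1 library was left out, since fewer libraries then have to separate. In K562 they were highest without Control 2, with 17 of 42 members higher (40.5%, against 29.9% of genes), and without Control 1, with 26 of 43 lower (60.5%, against 45% of genes), and lowest at 5 and 11. In NB4 the counts were 9 to 14 higher, the most without Control 1 (31.8%, against 22.5% of genes) or KD 2 (32.6%, against 22.9%). The fewest were higher without KD 1 (20.5%, against 20.9%). There the counts were 2 to 4 lower, the most without Control 2 (8.70%, against 9.96%) or Control 3 (8.89%, against 11%). The fewest were lower without KD 2 (4.65%, against 10.0%) or KD 3 (4.44%, against 10.8%).

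Across the lines, 41 members could be compared. KD moved the percentile without overlap in opposite directions for DDX41, DDX6 and DHX38 (7.32%, against 3.5% of genes), down in K562 and up in NB4. DDX6 was at 97.3 and 99.0 in K562 Control and 96.0 and 96.6 in KD, and at 81.4, 86.9 and 93.7 in NB4 Control and 97.3, 95.0 and 96.8 in KD. These K562 values came from the 5′ UTR of exon 2, and the NB4 values from the 3′ UTR except in NB4 Control 1. At the 5′ UTR alone the lines also moved in opposite directions without overlap. At the 3′ UTR the K562 libraries did not fall, at 93.1 and 93.0 in Control and 95.8 and 93.1 in KD. In the same direction moved DDX10, up in both lines, and DDX39A, down in both (4.88%, against 3.46%). The regions differed between the lines. DDX39A was scored at coding exon 2 in K562 and at the 5′ UTR of exon 1 in NB4. At exon 2, NB4 was at 64.5, 76.9 and 56.55 in Control and 73.8, 77.4 and 70.2 in KD. At the 5′ UTR, K562 was at 49.1 and 44.5 in Control and 48.7 and 65.3 in KD. DDX10 was scored at intron 13 in K562 and at coding exon 13 in NB4. At exon 13, K562 was at 89.8 and 91.4 in Control and 88.6 and 92.3 in KD. At intron 13, NB4 KD was above NB4 Control. In NB4, DDX10 was at 88.5, 89.8 and 83.0 in Control and 93.4, 95.0 and 94.1 in KD. For DDX10 and DDX39A the exact permutation test over both lines reached its lowest possible p, 0.0167, and the adjusted p was 0.621. That p follows from the lack of overlap in both lines for which they are named, and is no separate support.

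**Figure D4:**
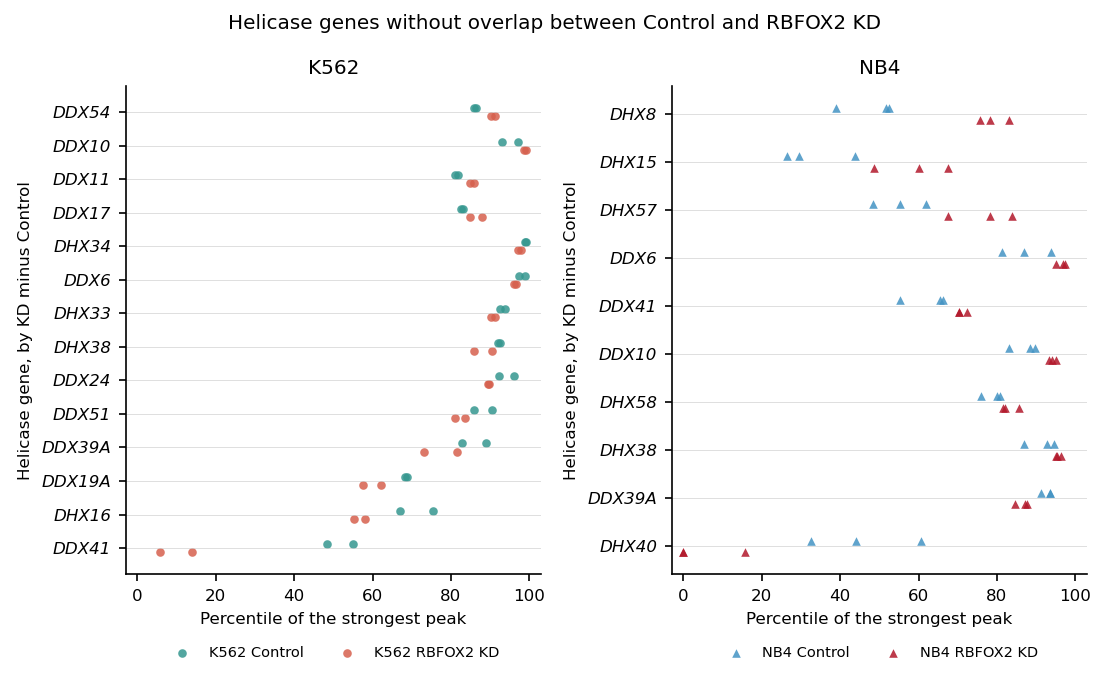
Percentile of the strongest peak in Control and RBFOX2 KD libraries for helicase genes without overlap between the groups, in K562 (2 against 2 libraries, left) and NB4 (3 against 3, right), ordered by KD minus Control. Most gaps in K562 are under 10 points except for DDX41 and DHX16, and DHX8, DHX15 and DHX57 show the widest upward gaps in NB4.

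The comparison was repeated for single regions. In K562, 0 of 145 helicase regions were gained in both KD libraries with none in Control, against 1.28% of regions, and 1 was lost, against 1.81%. The lost region was in DHX15 coding exon 14, at percentiles of only 3.18 and 3.03 in Control. In NB4, 1 of 149 was gained, against 3.19%, and none was lost, against 0.452%. The gained region lay at DDX46 in C5orf24 (chr5:134846060-134846333), at 51.1, 45.4 and 5.94 in KD, and K562 WT 1 and 2 also had a peak there, at 64.9 and 62.9.

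Some regions separated the K562 hairpin libraries, Control and KD alike, from all others. Those in the 10 other libraries and in none of the 4 K562 Control and KD libraries numbered 3 of 211 (1.42%), against 0.552% of all regions, in DDX46, DDX51 and DDX54, and this gap was not tested. DDX46 had 6 peaks in each K562 WT library, 1 in each of the 4 K562 hairpin libraries, and 4 to 6 in each NB4 library. At its coding exon 6 the percentiles were 88.5 and 79.6 in HepG2 WT, 84.5 and 81.6 in K562 WT and 74.3 to 98.3 in NB4, with no peak in K562 Control or KD. Regions in its exon 3, intron 3 and exon 5 were also in both K562 WT libraries and in none of the 4. At coding exon 2 of DDX51, a helicase of pre-ribosomal RNA release, the percentiles were 13.9 and 58.5 in HepG2 WT, 80.5 and 81.6 in K562 WT and 73.8 to 91.1 in NB4. At intron 15 of DDX54 they were 31.1 and 59.6, 35.4 and 43.5, and 0.424 to 41.2. The K562 hairpin libraries were shallower than K562 WT, at 12.6 to 19.5 against 24.9 and 25.6 M recovered reads. The part of depth in this pattern was not tested.
The summit windows of these 3 regions are shown because they mark where the K562 hairpin libraries departed from the other 10. GGAC, in capitals, was present at 2 places in the DDX54 window and absent from the other two.
DDX46 coding exon 6, chr5:134777524-134777624, plus: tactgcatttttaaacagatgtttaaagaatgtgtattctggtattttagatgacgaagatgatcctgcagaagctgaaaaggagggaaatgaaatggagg
DDX51 coding exon 2, chr12:132143857-132143957, minus: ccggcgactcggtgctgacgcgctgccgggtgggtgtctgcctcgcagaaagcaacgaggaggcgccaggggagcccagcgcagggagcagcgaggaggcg
DDX54 intron 15, chr12:113163225-113163325, minus: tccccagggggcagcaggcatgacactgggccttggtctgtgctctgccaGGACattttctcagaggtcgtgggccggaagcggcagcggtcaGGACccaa

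**Figure D5:**
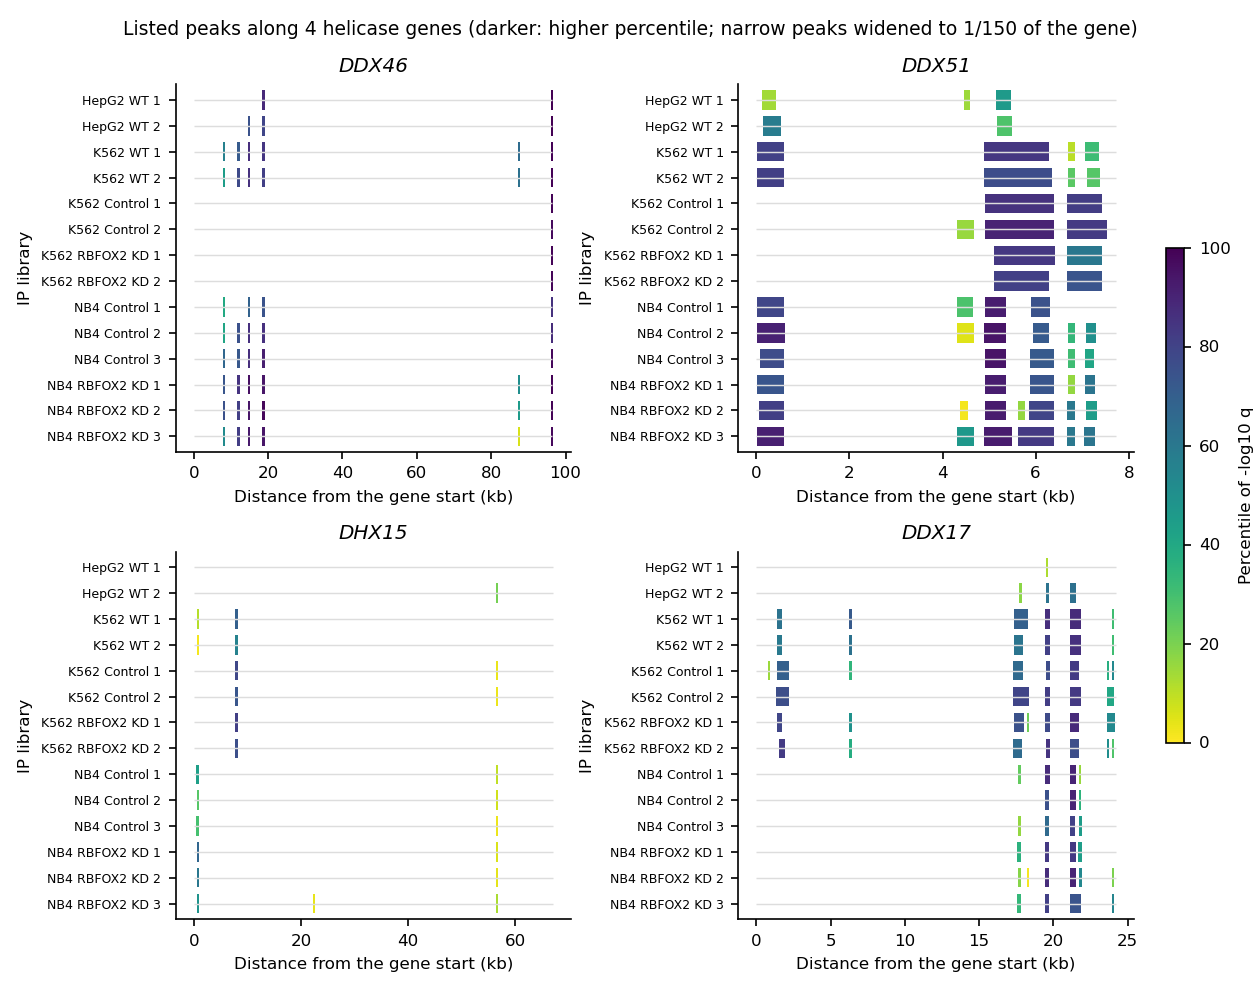
Listed peaks along DDX46, DDX51, DHX15 and DDX17 in the 14 IP libraries (rows), with distance from the gene start in kb and colour by percentile. The 4 K562 Control and KD rows lack all DDX46 peaks but the one at the far end and the first DDX51 peak, the strongest DHX15 peak lies in exon 2 in K562 and in intron 1 in NB4, and DDX17 has peaks near its start in K562 only.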

How the data were processed

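MeRIP-seq peak lists of 14 IP libraries were analysed, 1 list per library. Per the methods and labels, the authors trimmed reads with Trimmomatic 0.39, aligned them to hg38 with HISAT2 2.1.0, split alignments by strand with SAMtools 1.9 and called peaks with MACS2 at q under 0.01. Whether the input served as the control of MACS2 is not given in the sources used here. The deposited columns hold the fold at the summit as a ratio over the local background, a -log10 p-value, a -log10 q-value and a score, all computed by the authors with MACS2 and none of them a read count. No count model was therefore fitted. Effective depth was recovered from the fold and the p-value, with a tolerance of 0.1 for a whole pileup.

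Annotation was GENCODE release 44, and gene parts were those of the canonical transcript. The helicase genes, role lists and named genes were chosen with earlier results of these data known. Described in full were the 8 members with the highest mean percentile, the 5 largest called differences per direction between K562 and NB4, and the 3 largest per direction for HepG2 and for KD in each line. DDX3Y, a Y-linked member, was counted but no value of it is reported, and a gene had to have a peak in at least 3 libraries to be tested. Overlapping peaks of 1 gene were merged into regions. The sequence of 1 region is not reported here. The permutation code was tested on simulated data. Alternatives were -log10 q of at least 5, equal list sizes, lists cut to equal depth, other gene limits, peak numbers and leaving out libraries, and those without the HepG2 WT libraries were chosen after seeing the data. Python 3.11.15, numpy 2.4.6, pandas 2.3.3, scipy 1.17.1, pysam 0.24.0 and matplotlib 3.10.9 were used.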

Additional observations from a re-analysis of the deposited data

Results flagged for a closer look

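For 3 helicase genes the strongest peak moved on RBFOX2 KD without overlap in opposite directions in the lines. Each fell in both K562 KD libraries and rose in all 3 NB4 KD libraries. The change in K562 less that in NB4 was -50.5 percentile points for DDX41, -10.9 for DDX6 and -8.36 for DHX38. For each the exact permutation test of the difference between the lines gave p = 0.0167, the smallest it can give, with adjusted p = 0.580 over 10608 genes, so none passed. This p follows from the lack of overlap by which the genes were picked, and is no separate support. Of all genes, 522 (4.92%) had an unadjusted p under 0.05 in this test, and of 48 members 3 (6.25%). The DDX41 value rests on different regions in different K562 libraries, and at coding exon 3 alone the K562 Control and KD libraries overlapped. The DDX6 value rests on different regions in the 2 lines. At its 5′ UTR alone the opposite directions held, and at its 3′ UTR alone the K562 KD libraries did not fall.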

How the results depend on the processing

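Coding shares of helicase peaks were 46.1% to 50.6% and members with a peak in every library 27 to 36 under the alternatives that leave out no single library. By number of peaks per gene, 3648 genes differed between K562 and NB4, with 2 members higher in each line, and DHX57 (-0.167 peaks), DHX15 (-0.5), DDX21 (0.333), DDX23 (-0.5), DDX19B (1.17), DDX39A (0.833) and DDX3X (-0.833) changed sign without passing the test. The cause was not tested. With equal list sizes the intron share of helicase peaks was 21.3%, and 1 member was gained or lost on KD in each line, a count not set against all genes. Leaving out 1 library gave 360 to 565 genes gained or lost in K562 (157 with all) and 206 to 309 in NB4 (140 with all), with 0 to 2 and 0 to 1 members, and 4 to 9 members with peaks in K562 WT only, since fewer libraries have to match. Of 240 member differences between the lines with 1 library left out, 22 no longer passed, and of 176 under the other settings 20 did not and 7 changed sign. Replicate numbers did not pair the libraries (correlations of -0.0567 in K562 and -0.0724, -0.0800 and -0.195 in NB4), and with the replicate block 0 genes passed on KD, 0 at unadjusted p under 0.05 and the smallest adjusted p 0.863. Without the block these were 0, 491 and 0.621. The block leaves too few arrangements for any gene to reach an unadjusted p under 0.05. Its counts of 0 were therefore fixed in advance and cannot be set against the 491. Lists hold no reads below the caller's threshold, so an unlisted peak is not a site without m6A.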

Other observations

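Peaks on the strand opposite to a helicase gene were few. Each library had 16 to 39 within the limits of the 54 genes, 32 members had none in any library, and 5 had one in every library, namely DHX30, DHX29, DHX32, DDX51 and DDX28. Genes annotated on that strand lie opposite 4 of these, such as MTREX at DHX29, NOC4L at DDX51 and DUS2 at DDX28, while none is annotated opposite DHX30.

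DHX38, which encodes a helicase of the second step of splicing, stood out. On the strand opposite to it there were 13 and 16 peaks in HepG2 WT, 5 and 3 in K562 WT, 0 and 1 in K562 Control, 0 and 0 in K562 RBFOX2 KD, 11, 14 and 16 in NB4 Control and 14, 12 and 14 in NB4 RBFOX2 KD. Apart from 1 peak in TXNL4B and 1 in PMFBP1 per HepG2 and NB4 library, and 1 in TXNL4B in each K562 WT library, their summits lay in no annotated gene of that strand. HepG2 WT 2 and NB4 Control 3 had the most, with 14 such peaks each. The strongest opposite peak reached a percentile of 92.9 in NB4 Control 1 and 43.8 in K562 WT 1. The sense strand of DHX38 had 3 to 9 peaks per library, with percentiles of the strongest of 63.9 to 96.4. The 4 K562 hairpin libraries, which lacked the DDX46, DDX51 and DDX54 regions, had the fewest opposite peaks.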
